A study of Caenorhabditis elegans with 9 samples.

Results

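A Piwi mutant of Caenorhabditis elegans, mutated in both prg-1 and prg-2, was compared with wild type on 6 of the 9 arrays of the series, the 3 arrays labelled n4357 n4358 and the 3 arrays labelled N2. The mutant strain, MT14769, has allele n4357 in prg-1 together with allele n4358 in prg-2. N2 is the standard laboratory wild type. The other 3 arrays hold a second double mutant, strain SX9, with the alleles n4503 and nDf57, and are used here only for the spread and for a direct contrast of the mutants. All groups were whole young adults by their labels, with no treatment given, and each RNA sample came from a pellet of pooled animals. Nothing in the labels says that replicates came from separate cultures, so the tests rest on a spread between arrays that could be technical. The labels do not say which part of either gene the alleles remove. Levels are log2 values per probe set, a probe set being the group of short probes that reads 1 transcript, and a difference of 1 on this scale is a 2-fold difference.

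PRG-1 is the Piwi-class Argonaute protein of the nematode germline and PRG-2 is its close relative. Piwi proteins carry piRNAs, short germline RNAs that recognise transcripts by imperfect pairing. In worms this recognition recruits RNA-directed RNA polymerases, whose secondary small RNAs are loaded into other Argonautes that silence the transcript in the cytoplasm and at chromatin. Worms that lack PRG-1 are known for reduced fertility that worsens at high temperature and over generations.

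The targeted genes were read first. The prg-1 probe set, on chromosome I, had levels of 6.93, 6.13 and 5.40 in wild-type replicates 1 to 3 and of 6.74, 7.94 and 5.47 in mutant replicates 1 to 3. The groups overlapped, with the highest value on mutant replicate 2, and the difference was 0.56 (SE 0.61). Without that array it was -0.05. The prg-2 probe set, on chromosome IV, read 6.53, 6.35 and 6.0 in wild type and 5.46, 6.10 and 6.04 in the mutant, a difference of -0.43 (SE 0.21) with overlapping groups. Neither value checks the labels, because where the probes lie relative to the mutated parts was not analysed here, and the name of the prg-1 probe set marks it as able to detect related transcripts.

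Markers and controls showed arrays that stand apart. On mutant replicate 3, 647 probe sets lay over 2-fold above the mean of the other 2 mutant arrays and 1304 lay over 2-fold below it. The corresponding counts were 436 and 36 for mutant replicate 1, 246 and 342 for mutant replicate 2, and 309 and 371 for wild-type replicate 2, the most distant wild-type array. The 18 hybridisation controls, bacterial and phage transcripts added to every sample, were lower on all 3 mutant arrays than on any wild-type array, with mean levels of 9.64, 9.41 and 9.47 against 9.96, 9.89 and 10.05. The 27 control probe sets for Bacillus transcripts averaged 3.68 on mutant replicate 3 and 3.25 to 3.29 on the other 5 arrays. In the gene differences below, the shift of the hybridisation controls cannot be fully told apart from genotype. These controls did not overlap between the groups, and a fit with them as a covariate, given with the overall test, has this limit. The part of the Bacillus control shift was not tested. Adult markers were low on some arrays labelled young adult: col-19, an adult-specific cuticle collagen, read 3.53, 7.29 and 4.80 in wild type and 3.98, 3.64 and 6.04 in the mutant, where the lowest wild-type gene mean on the array was 2.5.

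**Figure D1:**
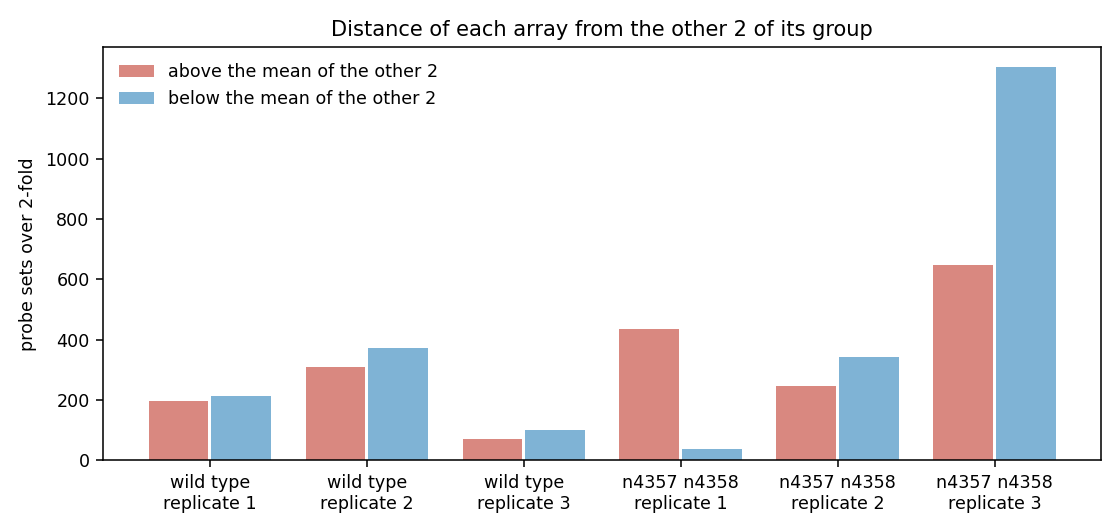
Number of probe sets (vertical axis) on each of the 6 arrays (horizontal axis) that lay over 2-fold above (red) or below (blue) the mean of the other 2 arrays of the same group. Mutant replicate 3 had the most in both directions, 647 above and 1304 below.

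Across all genes, no transcript passed the test in the n4357 n4358 mutant. limma with Benjamini-Hochberg adjustment called 0 of 22548 probe sets (a background of 0%), with a smallest adjusted p of 0.883, while 442 probe sets were higher and 457 lower at an unadjusted p under 0.05. With the hybridisation controls as a covariate, an alternative chosen after seeing the data, these unadjusted counts were 102 and 141. With array weights, which gave mutant replicate 3 a weight of 0.148 and mutant replicate 2 a weight of 3.35, 4 probe sets passed: bath-45 (adjusted p = 0.0271), dlhd-1 (adjusted p = 0.0375) and 2 probe sets without a single named gene. The smallest adjusted p of the other fits ran from 0.125 to 1.

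As a description, every mutant array exceeded every wild-type array for 982 probe sets (4.36%) and below them for 1060 (4.7%). With 1 probe set per gene these were 695 of 17118 genes (4.06%) above and 883 (5.16%) below, and the median difference over genes was 0.01. These percentages are the background for every count of separated members below, separated meaning that the 2 groups of arrays do not overlap. Between groups of 3 arrays, some probe sets separate without any difference between genotypes, and some reach an unadjusted p under 0.05. Neither count alone therefore shows a difference between genotypes. From the wild-type mean, 11 probe sets were over 2-fold higher on all 3 mutant arrays and 11 over 2-fold lower. On mutant replicate 3 alone, 461 were over 2-fold higher and 1052 over 2-fold lower.

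Among genes on the higher side, bath-45 had the smallest p. It encodes a MATH and BTB domain protein and is known as a piRNA target. Its levels were 4.38, 4.50 and 4.62 in wild type and 6.04, 5.77 and 5.43 in the mutant, a gap with no overlap and a mean 2.37-fold higher (difference 1.25, SE 0.16, limma adjusted p = 0.883). xol-1, a sex determination gene that is also known as a piRNA target, was at 2.99, 2.91 and 2.86 in wild type and 2.92, 3.05 and 2.80 in the mutant. These values lie near the bottom of the array's range, where a difference could not be read.

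Caenacins, antimicrobial peptides of the epidermis, were the other named family on the higher side. A cnc-7 probe set read 3.50, 3.37 and 3.29 in wild type and 4.30, 4.98 and 5.13 in the mutant (difference 1.42, SE 0.22), and a second one for the same gene gave 1.32. cnc-2 read 4.93, 4.34 and 4.11 against 6.29, 5.83 and 5.21 (difference 1.32, SE 0.30). cnc-4 read 6.78, 6.14 and 5.19 against 8.39, 6.87 and 6.82 (difference 1.32, SE 0.66). For these 3 genes the groups did not overlap. Probe sets for cnc-2 and cnc-7 can detect related genes. Of 26 measured epidermal antimicrobial peptides, 4 were separated higher, the fourth being cnc-6, and 0 lower, with a median difference of 0.09, or 0.18 without wild-type replicate 2 and mutant replicate 3.

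nhr-88, a nuclear hormone receptor, read 5.42, 4.90 and 5.04 in wild type and 7.24, 6.26 and 6.34 in the mutant, a mean 2.81-fold higher (difference 1.49, SE 0.33). spt-16, a subunit of the FACT histone chaperone, read 4.38, 4.38 and 4.35 against 4.98, 4.83 and 4.73 (difference 0.48, SE 0.10). The lowest mutant value of each exceeded the highest wild-type value. Probe sets for nhr-88 and spt-16 can detect related transcripts. scrm-4, a member of the phospholipid scramblase family, differed by 0.80 (SE 0.20). The remaining genes named by the same rule, T11F9.10, F20B10.3, Y67A10A.11 and T05B4.12, had differences of 0.74, 0.51, 0.42 and 0.52.

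On the lower side, lys-4, a lysozyme gene of the innate immune response, had the largest difference of the named genes. It read 9.99, 11.49 and 10.15 in wild type and 8.72, 8.11 and 8.81 in the mutant, a mean 3.99-fold lower (difference -1.99, SE 0.37). All mutant arrays lay below all wild-type arrays, and wild-type replicate 2 was the highest. The lys-4 probe set can detect related transcripts. dlhd-1 read 7.76, 7.54 and 7.56 against 6.12, 5.99 and 6.29 (difference -1.49, SE 0.27), the narrowest spread within groups of the genes over 2-fold lower that are given here with every array. F14D7.6 read 8.74, 9.43 and 9.40 against 7.89, 8.31 and 7.93 (difference -1.15, SE 0.21).

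flp-15, which encodes FMRFamide-like neuropeptides, was lower by both of its probe sets, whose names mark them as able to detect related transcripts. One read 6.53, 6.65 and 6.68 in wild type and 5.65, 5.84 and 6.22 in the mutant (difference -0.72, SE 0.16), and the other gave -0.73. ech-1.1, an enoyl-CoA hydratase of fatty acid oxidation, read 7.0, 7.56 and 7.28 against 6.32, 6.17 and 6.67 (difference -0.89, SE 0.20). scav-1, a CD36-type scavenger receptor, read 9.65, 9.72 and 9.80 against 9.0, 9.31 and 9.32. Both were separated. txt-9, lmp-2, C07A9.9, F57F4.1 and C07H6.2 had differences of -1.06, -0.85, -0.93, -0.48 and -0.41.

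**Figure D2:**
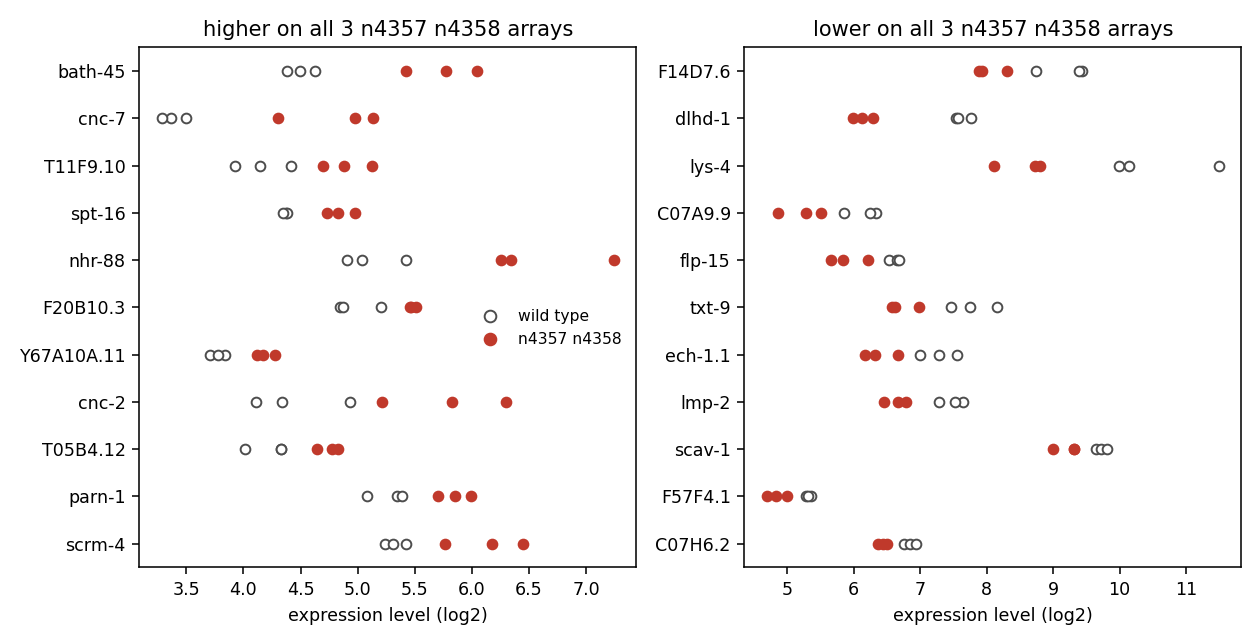
Expression level (log2, horizontal axis) of the genes with the smallest limma p among those whose groups do not overlap, higher (left) and lower (right) in the mutant; open points are the 3 wild-type arrays and filled points the 3 mutant arrays. bath-45 sits between 4.38 and 4.62 in wild type and between 5.43 and 6.04 in the mutant.

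Over 2-fold and separated were 23 probe sets on the higher side and 34 on the lower, naming 17 and 30 genes. The genes in this paragraph were chosen after their values were seen, apart from dod-3, sip-1 and cyc-2.2. The largest differences belonged to pud-3 and pud-4, neighbouring genes first described by proteomics of insulin signalling mutants. pud-3 read 5.64, 8.14 and 4.95 in wild type and 9.39, 9.50 and 8.23 in the mutant (difference 2.80, SE 0.79). pud-4 read 4.31, 7.12 and 4.08 against 7.86, 8.60 and 7.66 (difference 2.87, SE 0.88). Wild-type replicate 2 was far above the other wild-type arrays for both and came close to the mutant range. mxl-3, a transcription factor of the fasting response, differed by 1.65 (SE 0.70), asns-2, an asparagine synthetase, by 1.44 (SE 0.39), and adh-1, an alcohol dehydrogenase, by 1.11 (SE 0.31). dod-3, a gene downstream of the transcription factor DAF-16, read 5.31, 6.51 and 5.21 against 7.43, 6.68 and 7.52. sip-1, a small heat shock protein, read 6.2, 7.75 and 6.38 against 8.28, 8.04 and 8.14. On the lower side, txdc-12.1, a thioredoxin domain protein, differed by -1.52 (SE 0.48) and cyc-2.2, a cytochrome c, by -1.49 (SE 0.40). gpx-1, a glutathione peroxidase, differed by -1.24 (SE 0.58), and irg-3, an infection response gene, by -1.13 (SE 0.30). These means hide uneven arrays. From the wild-type mean, mutant replicates 1 to 3 lay at -1.96, -0.60 and -2.02 for txdc-12.1 and at -0.63, -2.39 and -1.45 for cyc-2.2. They lay at -0.78, -0.91 and -2.02 for gpx-1 and at -0.82, -0.97 and -1.60 for irg-3.

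Small RNA genes differed by less than 2-fold between the groups. The median difference of 17 measured piRNA pathway factors was 0.19, and also 0.19 without wild-type replicate 2 and mutant replicate 3. Their median relative to the wild-type mean was 0.11, -0.04 and 0.01 on the wild-type arrays. It was 0.285, 0.14 and -0.24 on mutant replicates 1 to 3, so mutant replicate 3 was the lowest of these arrays. Of these factors, 5 (29.4%, against 4.06% of all genes) were separated higher and 0 lower. They were parn-1, the nuclease that trims piRNA 3′ ends, prde-1, a factor for piRNA precursor transcription, and pid-2, pid-4 and pid-5. parn-1 read 5.35, 5.08 and 5.38 in wild type and 5.99, 5.86 and 5.71 in the mutant (difference 0.58, SE 0.14), and pid-2 read 5.58, 5.30 and 5.15 against 5.82, 5.67 and 6.35 (difference 0.60, SE 0.22). No factor differed 2-fold. Of 19 Argonautes, 3 were separated higher and 0 lower (median 0.15, and 0.05 without wild-type replicate 2 and mutant replicate 3). Examples are sago-1, a secondary Argonaute, with a difference of 0.31 (SE 0.11), and wago-2, at 0.51 (SE 0.18) with overlapping groups. Of 27 RNA-directed RNA polymerases, mutator proteins and their partners, 4 were separated higher and 1 lower (median -0.04, and 0.02 without those arrays), and the ones with the smallest p were eri-3 (0.44) and eri-5 (0.48), partners of Dicer, and rde-10 (0.33) and rde-11 (0.27), which act in the amplification of small RNAs.

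The germline lists had small median differences, positive for 4 of the 5 given here. Of 20 P granule proteins, components of the germline's perinuclear RNA granules, 18 had a positive difference, 2 were separated higher and 0 lower (median 0.16). Their median relative to the wild-type mean was 0.11, -0.03 and -0.12 on the wild-type arrays. It was 0.10, 0.25 and -0.04 on mutant replicates 1 to 3, so wild-type replicate 1 lay above mutant replicates 1 and 3. glh-4, a Vasa-type helicase, differed by 0.39 (SE 0.10) and pgl-3 by 0.77 (SE 0.29), the latter with overlapping groups. Of 18 germline markers, 2 were separated higher and 0 lower (median 0.23). Their median level relative to the wild-type mean was 0.37, -0.14 and -0.20 on the wild-type arrays and 0.51, 0.37 and -0.17 on the mutant arrays, so mutant replicate 3 and wild-type replicates 2 and 3 lay low, and the part of germline content in these results was not tested. In whole animals, fewer germ cells and less RNA per cell cannot be told apart. Of 27 meiotic chromosome proteins (median 0.09, and 0.21 without wild-type replicate 2 and mutant replicate 3), 2 were separated higher and 0 lower: syp-4, of the synaptonemal complex (0.47, SE 0.13), and rec-8, a meiotic cohesin (0.39, SE 0.16). Of 20 histone methylation and nuclear silencing genes, 12 had a negative difference (median -0.02, and 0.02 without those arrays) and 1 was separated, higher: mes-2, a histone methyltransferase (0.26). Of 31 oocyte and eggshell genes (median 0.08, and 0.20 without those arrays), 2 were separated higher and 0 lower, with mex-6, an RNA-binding protein of the early embryo, at 0.37 (SE 0.11).

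Sperm genes were lowest on mutant replicate 2. All 23 major sperm protein genes, whose products drive the crawling of nematode sperm, had a negative difference, with a median of -1.03 and a range from -1.52 to -0.42. None was separated. Their median relative to the wild-type mean was -0.38 on mutant replicate 1, -3.02 on replicate 2 and 0.22 on replicate 3, against -0.02, 0.57 and -0.53 in wild type. msp-33, for example, read 8.59, 9.53 and 8.47 in wild type and 8.27, 5.47 and 8.97 in the mutant. Without mutant replicate 2 the list median was -0.08. Without wild-type replicate 2 and mutant replicate 3, a set that keeps mutant replicate 2, it was -1.40. All 23 probe sets can detect related genes, so the members are not independent readings. Of 52 other sperm genes, 24 had a positive and 28 a negative difference, 1 was separated higher and 2 lower, and 5 were over 2-fold lower (median -0.06, and -0.10 without wild-type replicate 2 and mutant replicate 3). For example, nspd-4 read 7.57, 9.24 and 8.77 against 7.23, 4.67 and 8.04, again lowest on replicate 2.

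Yolk genes varied widely within both groups. The 5 vitellogenins, yolk precursors of the adult intestine, had negative differences with a median of -0.60 and 0 separated. Their median relative to the wild-type mean was -1.15, -0.65 and -0.12 on mutant replicates 1 to 3 and -1.23, 1.0 and 0.26 on the wild-type arrays, so mutant replicate 3 lay near the wild-type mean and the median of wild-type replicate 1 was below that of every mutant array. The members with the largest differences were vit-4 and vit-5. vit-4 read 4.90, 7.87 and 7.05 in wild type and 4.29, 5.01 and 5.61 in the mutant, and vit-5 read 4.33, 7.21 and 6.91 against 4.16, 4.64 and 4.92. Wild-type replicate 1 lay within the mutant range for both.

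**Figure D3:**
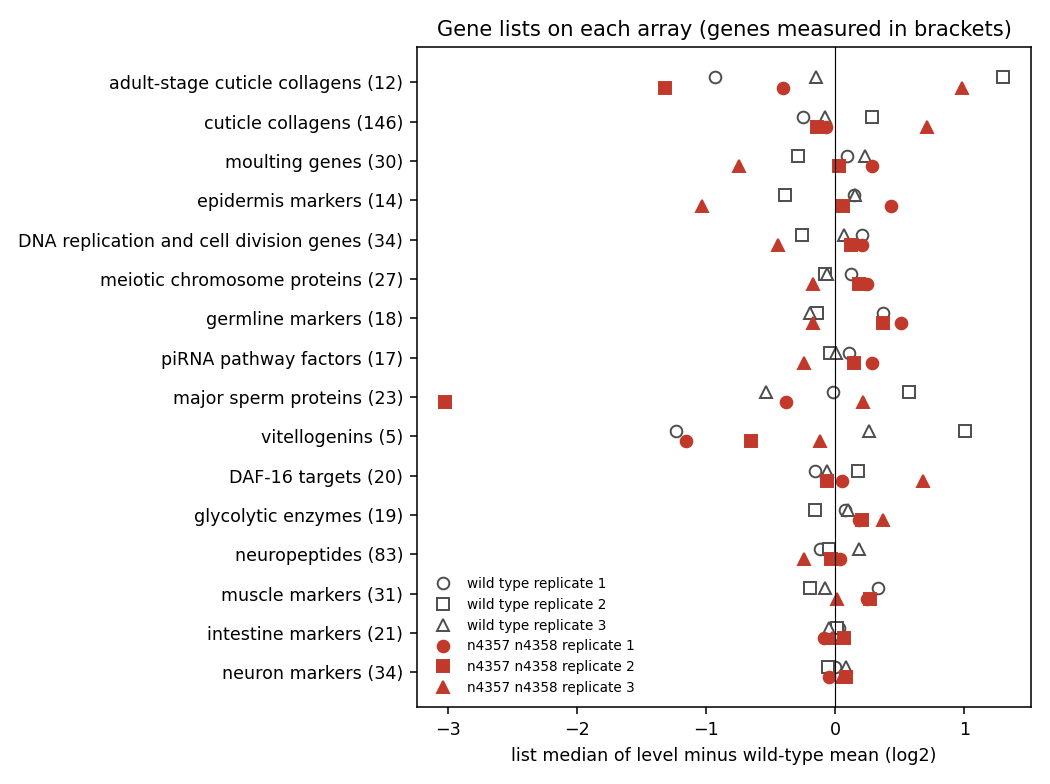
Median over each gene list (rows, with the number of genes measured) of the level on 1 array minus the mean of the 3 wild-type arrays, in log2 units (horizontal axis). Open symbols are wild type and filled symbols the mutant, with circle, square and triangle for replicates 1, 2 and 3; the major sperm proteins lie at -3.02 on mutant replicate 2, and adult-stage collagens at 0.98 on mutant replicate 3 and 1.3 on wild-type replicate 2.

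Cuticle and moulting genes differed more between arrays of 1 group than between the groups. The 12 adult-stage cuticle collagens had medians of -0.40, -1.32 and 0.98 on mutant replicates 1, 2 and 3 and of -0.93, 1.3 and -0.15 in wild type, and 0 were separated. The 30 moulting genes had medians of 0.28, 0.03 and -0.75 in the mutant and 0.09, -0.28 and 0.23 in wild type, and 0 were separated. Mutant replicate 3 and wild-type replicate 2 were thus the high arrays for the first list and the low arrays for the second. Of 146 cuticle collagens, 0 were separated higher and 1 lower, col-153, at -0.56 (SE 0.18).

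The genes with the largest gap between mutant replicate 3 and the mean of the other mutant arrays are given as a description. Of the 8 with replicate 3 on the high side, 5 were collagens: col-120 read 6.98, 4.76 and 9.98 on mutant replicates 1 to 3 and 5.06, 10.15 and 7.15 in wild type. col-60, col-122, col-181 and col-184 showed the same pattern, with wild-type replicate 2 the highest wild-type array and above mutant replicate 3 for each. Y47D7A.15 and R12E2.14 were also highest on those arrays. acdh-1, an acyl-CoA dehydrogenase of propionate breakdown that responds to vitamin B12, read 8.44, 4.51 and 10.34 in the mutant and 8.24, 3.77 and 9.54 in wild type, where replicate 2 of each group was the low array. On the low side was dpy-6, a mucin-like cuticle protein, at 6.01, 6.88 and 3.28 in the mutant and 7.09, 3.70 and 5.72 in wild type. fbxa-72, K10D3.4, F23H12.5, fipr-2 and clec-180 were lowest of the wild-type arrays on replicate 2 as well. For F42A10.7, wild-type replicate 2 was the highest wild-type array. For srlf-34, mutant replicate 3 lay within the wild-type range and the other 2 mutant arrays above it.

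**Figure D4:**
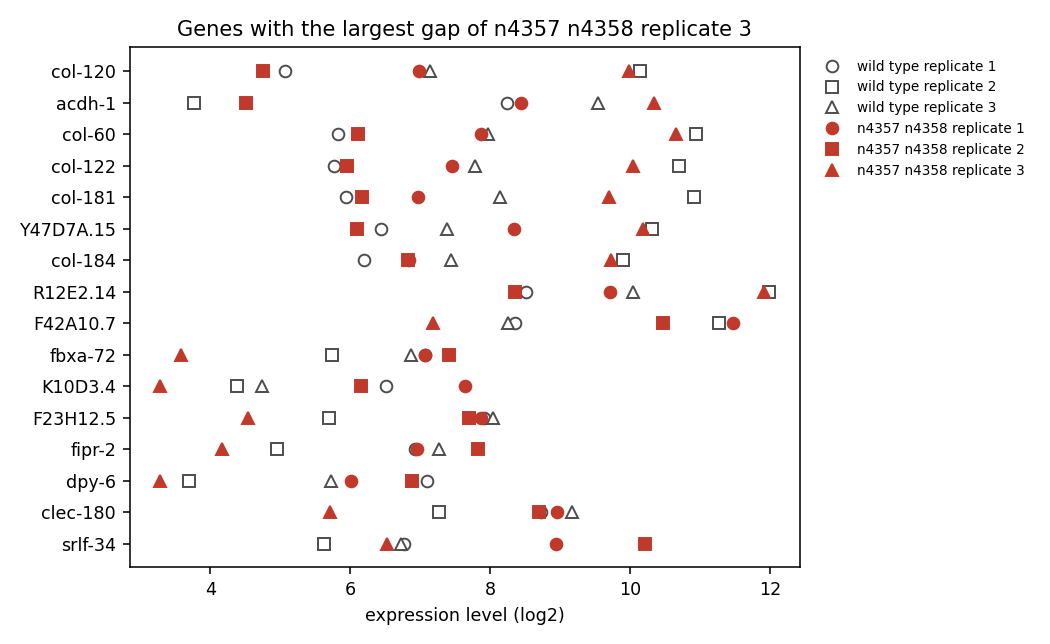
Expression level (log2, horizontal axis) on each of the 6 arrays of the 16 genes with the largest gap between mutant replicate 3 and the mean of mutant replicates 1 and 2. Triangles are replicate 3, squares replicate 2 and circles replicate 1, open for wild type; col-120 reads 9.98 on mutant replicate 3 and 10.15 on wild-type replicate 2.

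More neuropeptide genes were separated lower than higher, and mutant replicate 3 lay lowest. Of 83 measured, 14 (16.9%) were separated lower and 1 (1.2%) higher, flp-17, with a median difference of -0.08. Among all genes 5.16% were separated lower, and 11.1% among the 4280 with the highest levels, which included 38 of these 83. Level was not separated from family for the neuropeptide genes. Their median relative to the wild-type mean was 0.03, -0.03 and -0.24 on mutant replicates 1 to 3 and -0.12, -0.04 and 0.19 in wild type, so mutant replicates 1 and 2 lay within the wild-type range. Without wild-type replicate 2 and mutant replicate 3 the median difference was -0.01. nlp-17 read 8.53, 8.59 and 8.86 in wild type and 7.39, 7.87 and 7.86 in the mutant (difference -0.95, SE 0.27). nlp-12, a cholecystokinin-like peptide, read 9.19, 9.33 and 9.60 against 8.32, 8.56 and 8.96 (difference -0.76, SE 0.21). nlp-81 and nlp-89 differed by -0.81 each. Of the 34 neuron markers, 0 were separated higher and 1 lower, ric-19, with a median of 0.02 (-0.01 without those arrays), and their per-array medians ran from -0.06 to 0.08.

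The energy metabolism lists held separated genes in both directions. Of 19 measured genes of glycolysis and gluconeogenesis, 7 were separated higher and 0 lower (median 0.21). pck-1 and pck-2, phosphoenolpyruvate carboxykinases, differed by 0.80 (SE 0.30) and 0.50 (SE 0.16). pck-2 read 10.91, 10.88 and 10.94 in wild type and 11.25, 11.24 and 11.73 in the mutant. aldo-1, an aldolase, differed by 0.71, and gpd-3, a glyceraldehyde phosphate dehydrogenase, by 0.32. Without wild-type replicate 2 and mutant replicate 3 the list median was 0.08. Of 42 oxidative phosphorylation genes, 2 (4.76%) were separated higher, among them sdhd-1 of succinate dehydrogenase (0.47, SE 0.15), and 5 (11.9%) lower. The median of this list was 0.12, and 0.01 without those arrays. Of the 4280 genes with the highest levels, which included 38 of these 42, 11.1% were separated lower and 3.22% higher. The share of the list separated lower was thus near that of genes at such levels. Of 17 genes of the propionate pathways and vitamin B12, 2 were separated higher and 0 lower: pcca-1 and pccb-1, the subunits of propionyl-CoA carboxylase, at 0.53 and 0.44. The median of that list was 0.22, and -0.13 without those arrays. Of 61 fatty acid activation and beta-oxidation genes, 4 (6.56%) were separated higher, including cpt-1, and 6 (9.84%) lower, including maoc-1 (-0.49). The genes with the highest levels included 40 of these 61. fat-7, a stearoyl-CoA desaturase, read 8.71, 10 and 8.34 against 8.32, 8.02 and 7.80 (difference -0.97, SE 0.38).

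Abundant transcripts were more often on the lower side. Among the 4280 genes with the highest mean levels, 11.1% of genes were separated lower and 3.22% higher, against 2.03% and 3.9% among the 4280 with the lowest, and the median difference was -0.08 against 0.05. Of 63 cytosolic ribosomal proteins, 13 were separated lower and 0 higher, with a median of -0.02; rpl-39, at -0.25, and rps-15, at -0.17, are examples. Of 8 measured genes of the mitochondrial genome, chosen after seeing the values, 6 were separated lower (median -0.26). COX2, a subunit of cytochrome c oxidase, read 9.83, 10.10 and 9.71 against 9.43, 9.53 and 9.53. The hybridisation controls, also at high levels, lay lower on the same arrays. With them as a covariate, which cannot be fully told apart from genotype, the median of the ribosomal list was -0.04. Their part in the other values of this paragraph was not tested. On the nuclear chromosomes, 3.54% to 4.62% of genes were separated higher and 4.08% to 6.12% lower.

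The detoxification families are given beside 5.16% of all genes separated lower and 11.1% of the genes with the highest levels. Those genes included 15 of 64 UDP-glucuronosyltransferases and 19 of 45 glutathione S-transferases, so level was not separated from family here. Of 64 UDP-glucuronosyltransferases, 2 were separated higher, including ugt-64 (0.56), and 7 (10.9%) lower, including ugt-5 (-0.77) and ugt-9 (-0.45), with a median of -0.07, or -0.04 without wild-type replicate 2 and mutant replicate 3. Of 73 cytochrome P450 enzymes, 0 were separated higher and 2 lower. Of 45 glutathione S-transferases, 1 was higher and 4 (8.89%) lower, among them gst-27 (-0.35). Of 220 C-type lectins, 6 were higher and 3 lower, with clec-51 at -0.69 and clec-5 at 1.26, the latter with overlapping groups. Of 16 lysozymes, lys-4 was separated lower and lys-8 higher. Of 310 F-box genes, 7 were higher and 17 lower, with fbxa-76 at -0.47 and fbxa-108 at -0.62.

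Markers of other tissues were read beside these groups. Of 31 muscle markers, 4 (12.9%) were separated higher and 0 lower, the median being 0.11, with 22 differences positive and 9 negative. Their median relative to the wild-type mean was 0.33, -0.20 and -0.08 on the wild-type arrays. It was 0.25, 0.27 and 0.02 on mutant replicates 1 to 3, so wild-type replicate 1 lay above every mutant array. tni-3, a troponin I, read 7.59, 6.93 and 6.99 in wild type and 8.22, 7.78 and 7.89 in the mutant (difference 0.79, SE 0.20), and mlc-3, a myosin light chain, differed by 0.55 (SE 0.21). Of 21 intestine markers, 0 were separated higher and 1 lower. cpr-4 and cpr-5, gut cathepsin B proteases, had differences of 1.07 and 1.18 with overlapping groups, wild-type replicate 1 lying within the mutant range. The 14 epidermis markers had a median of -1.03 on mutant replicate 3 and of 0.43 and 0.06 on replicates 1 and 2.

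The remaining lists lay on both sides of the background of 4.06% higher and 5.16% lower. Of 103 BATH, MATH and BTB domain genes, 4 were separated higher, bath-45 among them, and 2 lower, including math-47 (-0.94, SE 0.40). Of 254 nuclear hormone receptors, 7 were higher and 17 lower. Of 40 transthyretin-related genes, 4 (10%) were higher and 3 (7.5%) lower, with a median of -0.01, and of 36 astacin metalloproteases, 4 (11.1%) were higher and 0 lower, with a median of 0.06. Of 20 DAF-16 targets, 3 (15%) were higher and 1 lower (median 0.25, and 0.05 without wild-type replicate 2 and mutant replicate 3). Of 25 heat shock proteins, sip-1 was separated higher and hsp-17 lower (-0.64, SE 0.28). The 34 histones held 1 separated higher and the 34 DNA replication and cell division genes 1 higher, with a median of the latter list of -0.45 on mutant replicate 3. The 33 proteasome subunits held 1 higher, the 24 insulin-like peptides 1 lower, and the 13 heterochronic timing genes and 80 hedgehog-related and patched-related genes held 0. lin-28 and blmp-1, heterochronic regulators, differed by -0.44 and -0.63 with overlapping groups, both lowest on mutant replicate 3.

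**Figure D5:**
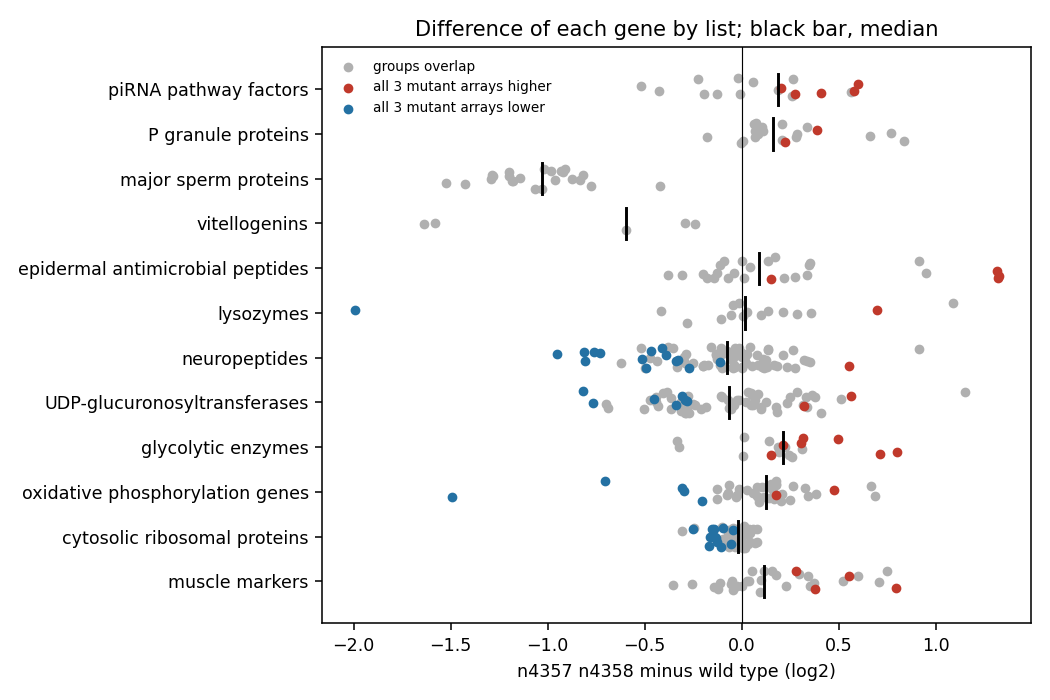
Difference between the mutant and wild-type means (log2, horizontal axis) for each measured gene of 12 lists (rows), with the list median as a black bar; red points have all 3 mutant arrays above all wild-type arrays, blue points all below, and grey points overlap. The 23 major sperm proteins all lie left of 0 without being separated.

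In the direct contrast of the mutants, n4503 nDf57 minus n4357 n4358, 0 probe sets passed limma's test (smallest adjusted p = 0.977) and 557 had an unadjusted p under 0.05. With array weights 142 passed, 99 of them higher in n4503 nDf57 and 43 lower, while the other fits called 0. The 142 included cnc-7 (adjusted p = 0.0246), cnc-2 (adjusted p = 0.027), lys-4 (adjusted p = 0.0445), dlhd-1 (adjusted p = 0.0246) and bath-45 (adjusted p = 0.0448). The weights were 0.298, 6.64 and 0.834 for n4503 nDf57 replicates 1 to 3 and 0.856, 3.35 and 0.148 for n4357 n4358. Replicate 2 of each mutant thus carried most of the weight, and these calls rest mainly on those arrays. For the caenacins the second mutant lay lower: cnc-7 read 3.21, 3.69 and 3.64 on its arrays (contrast -1.29, SE 0.22) and cnc-2 read 4.07, 4.57 and 4.49 (contrast -1.40, SE 0.30), both within or near the wild-type values. For lys-4 it read 9.72, 9.79 and 9.79 (contrast 1.22, SE 0.37) and for dlhd-1 6.41, 7.13 and 7.63 (contrast 0.92, SE 0.27). bath-45 read 6.10, 6.39 and 6.25, above every n4357 n4358 array (contrast 0.50, SE 0.16). nhr-88, at 6.03, 6.98 and 6.85, differed between the mutants by 0.01 (SE 0.33). Each mutant is compared with the same 3 wild-type arrays, so its difference from wild type is not independent of the other's.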

How the data were processed

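RNA of whole young adults was labelled with biotin and hybridised to 1-colour Affymetrix arrays, per the labels. Each value is a log2 level as deposited, which the authors computed by RMA, per the submitters' processing notes. Those notes also name limma. The sources used here give no versions or settings. RMA equalises the distributions of the arrays, which removes shifts shared by most genes, and compresses low levels. Array medians were 4.76 to 4.83, and 3 arrays per group limit the precision.

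Of 22625 probe sets, 77 controls were left out and 22548 tested. Of these, 20766 name 1 gene, 887 several and 895 none, covering 17118 genes; 20701 matched the WBcel235 gene table and 65 did not. The names of 6711 mark probe sets that can detect related transcripts. All 9 arrays entered 1 limma fit (limma 3.58.1, R 4.3.3) with a mean per group, Benjamini-Hochberg adjustment over all probe sets and a threshold of 0.05. SE is that of the fit, with 6 residual and 2.38 prior degrees of freedom. Lists used 1 probe set per gene, the one with the highest mean. The fit was also run on simulated data with independent noise of the same spread on every array. That setting holds no array that stands apart, so it checks the working of the fit and not these results.

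Named genes were bath-45, xol-1, prg-1 and prg-2, called probe sets or, since none was called, the 12 separated single-gene probe sets with the smallest p in each direction, the members of each list with the smallest p, and the 8 largest rises and falls of mutant replicate 3. Other genes were chosen after their values were seen. Members, lists, rule and tests were chosen with earlier results of these data known. The pattern that finds cytochrome P450 genes was corrected after the files were opened, because it had matched no gene. Alternatives were a replicate block, a filter at the 30th percentile, a variance trend, array weights, only 6 arrays, centring on ribosomal and proteasome genes, cyclic loess, no shared probe sets, stricter thresholds, a moulting-gene covariate, averaging the probe sets of a gene in lists, arrays left out, and, added after seeing the data, a hybridisation-control covariate and the same fits, with n4503 nDf57 arrays also left out in turn, for the contrast of the mutants.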

Additional observations from a re-analysis of the deposited data

How the results depend on the processing

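The count of probe sets past the threshold was 0 under every alternative run except array weights, where it was 4. The replicate block gave 0, with a smallest adjusted p of 0.951, and deviations of same-numbered arrays correlated at 0.19, -0.42 and -0.19, so the numbers were not taken as pairs. Of 120 genes given in the text, 2 passed the threshold under 1 alternative (bath-45 at 1.31 and dlhd-1 at -1.61, both with array weights), 61 values turned sign and 1926 kept direction and side of the threshold. The sign changes belonged to prg-1, xol-1, col-19 and 15 of the genes chosen for their gap on mutant replicate 3, which differ between genotypes by less than between arrays; the cause was not tested.

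Separated probe sets numbered 594 on the higher side and 772 on the lower without shared probe sets. Leaving out wild-type replicate 2 and mutant replicate 3 together gave 3655 higher and 3149 lower, and leaving out 1 array gave 1591 to 3028 higher and 1578 to 2351 lower. With fewer arrays, non-overlap is easier to reach. Among separated probe sets the higher share was 48.1% as reported, 45.8% with cyclic loess, 55.8% with centring on ribosomal and proteasome genes, 43.5% without shared probe sets, 44.2% with the filter on low levels, 53.7% without both arrays, and 44.9% to 61.4% with 1 array left out, highest without mutant replicate 1. At an unadjusted p under 0.05, array weights gave 1265 higher and 1145 lower, the moulting-gene covariate 847 and 965, and the hybridisation covariate 102 and 141. Without shared probe sets they were 246 and 323, and without both arrays 368 and 252. Leaving out 1 array gave 200 to 680 higher and 213 to 660 lower: 657 and 660 without wild-type replicate 1, 222 and 213 without wild-type replicate 2, 200 and 267 without wild-type replicate 3, and 680 and 501 without mutant replicate 1.

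In the direct contrast of the mutants the count was 0 as reported, 142 with array weights and 0 under the other alternatives, all chosen for this contrast after seeing the data. Its unadjusted count of 557 ran from 190 to 1641 with 1 array left out, both ends set by n4503 nDf57 arrays. The contrast of cnc-7, cnc-2, lys-4, dlhd-1 and bath-45 kept its sign in every fit, and that of nhr-88, at 0.01, was -0.07 with cyclic loess, -0.01 with the moulting covariate, -0.13 without both arrays and -0.17 to 0.32 with 1 array left out.

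With array weights the differences of acdh-1, Y47D7A.15, fbxa-72, F23H12.5, fipr-2, dpy-6 and clec-180 were -2.32, -0.98, 0.52, 0.13, 0.89, 0.79 and 0.05. With cyclic loess xol-1, col-60 and col-184 were at -0.04, 0.03 and 0.02. With the hybridisation covariate col-120, col-60, col-122, col-181, col-184 and R12E2.14 were at 1.1, 1.15, 0.85, 0.15, 0.46 and 0.68. With the moulting covariate Y47D7A.15, fipr-2 and dpy-6 were at -0.12, 0.18 and 0.14. Without both arrays acdh-1, col-60, col-184, fbxa-72, fipr-2, dpy-6 and F42A10.7 were at -2.41, 0.1, 0.01, 0.27, 0.29, 0.04 and 2.66.

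Leaving out 1 array at a time moved prg-1 from -0.05 to 1.19, xol-1 from -0.06 to 0.07, col-19 from -1.49 to 0.39, col-120 from -1.58 to 1.14, acdh-1 from -1.13 to 2.21, col-60 from -1.25 to 1.32 and col-122 from -1.42 to 1.05. It moved col-181 from -1.91 to 0.58, Y47D7A.15 from -0.82 to 1.3, col-184 from -1.01 to 0.98, R12E2.14 from -0.99 to 0.53 and F42A10.7 from -0.47 to 1.68. It moved fbxa-72 from -1.23 to 0.68, K10D3.4 from -0.34 to 1.19, F23H12.5 from -1.28 to 0.56, fipr-2 from -0.83 to 1.0, dpy-6 from -1.02 to 0.94 and clec-180 from -1.18 to 0.44. Of the list medians, 797 moved by under 1 SD and 19 by more, the SD being that of the list mean between arrays of a group. For lists that vary widely between arrays this SD is large, so large shifts can count as under 1 SD. Low levels such as that of xol-1 limit what these arrays can show.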
